A study of Mus musculus with 29 samples.

Results

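Mo2 is one of 5 monocyte subtypes that the authors' deposited annotation assigns to single blood leukocytes of mice after experimental stroke. Its members are the blood cells whose parent type is Mo and whose subtype code is Mo2, and no expression value was used here to choose them. There are 1898 such cells among 6558 monocytes and 51709 blood cells, in a series of 106977 cells and 29 libraries from blood and brain. The other codes hold 1929 (Mo1), 1758 (Mo3), 545 (Mo4) and 428 (Mo5) cells.

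The 11 blood libraries came from C57BL/6J male mice aged 8 to 10 weeks. They form 3 groups: sham surgery with blood taken at day 2 (n = 4), transient occlusion of the middle cerebral artery, a model of ischaemic stroke, with blood taken at day 2 (n = 4), and the same occlusion with blood taken at day 14 (n = 3). No sham group of day 14 is part of the blood set, so time and surgery cannot be told apart in a comparison of day 14 with sham. Each library pooled the blood of 2 mice, red cells were lysed and Ter-119+ cells removed, and single cells were captured by Drop-seq, which reads the 3′ end of each transcript. Nothing in the labels says that the libraries of a group came from separate surgeries or days, so p-values measure the spread between these libraries.

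Monocytes are circulating myeloid cells made in the bone marrow. Classical mouse monocytes display Ly6C and the chemokine receptor CCR2, enter injured tissue, the ischaemic brain included, and can become macrophages there. Nonclassical monocytes hold little Ly6C, depend on the nuclear receptor NR4A1 and patrol the vessel wall. Both kinds express CSF1R, the receptor for macrophage colony-stimulating factor.

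The Mo2 libraries held 184, 440, 123 and 111 cells in sham, 230, 126, 425 and 202 cells at day 2 after stroke, and 13, 22 and 22 cells at day 14. The median count per Mo2 cell was 573 to 1273 in sham libraries, 421 to 1393 at day 2 and 510.5 to 584 at day 14. The summed Mo2 count was 87812 to 283847, 66765 to 327799 and 6746 to 14067 in the same order. Every expression value of Mo2 at day 14 therefore rests on 57 cells and 33797 counts, and the first day 14 library, with 13 cells, was left out of the fits within Mo2 and of the subtype description. Cell barcodes shared by any pair of blood libraries numbered 7 at most.

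Csf1r, the marker of the monocyte label, was present in Mo2. It had a pooled level of 346 CPM (counts of the gene per 1000000 counts of the cells summed) in Mo2, 526 CPM in the other monocytes, 98.8 CPM in neutrophils and 93.4 CPM in dendritic cells of the same blood. With each cell thinned to 400 counts, Csf1r was seen in 12.1% of 1479 Mo2 cells and in 12.9% of 1584 Mo1 cells, in 4.07% of 13130 neutrophils and in none of 10526 B cells, which allows a share of up to 0.0285% of B cells with a count in this table. Without thinning the shares were 24.2% of 1898 Mo2 cells, 23.0% of 1929 Mo1 cells and 6.50% of 17186 neutrophils. The median depths were 713, 652 and 542 counts, against 422 in B cells, and thinning left out 419, 345, 4056 and 7813 cells. The Csf1r level per library was 294, 471, 308 and 283 CPM in sham Mo2, 229.5, 409, 492 and 299 CPM at day 2 after stroke, and 293, 456 and 708 CPM at day 14. Csf1r in Mo2 was below that of the other monocytes in 8 of 10 libraries, and its groups overlapped.

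Markers of other blood cells were present in Mo2 at levels that differed between libraries. The 10 neutrophil markers summed to 55.8 to 645 CPM in sham, 16.5 to 65.4 CPM at day 2 and up to 182 CPM at day 14, with Mmp9, Cxcr2, Camp and Ngp at 0. The 6 B cell markers summed to 93.2 to 211, 36.4 to 117 and 19.5 to 465 CPM, with Ebf1 at 0, and the NK cell list reached 60.02 CPM in a day 14 library. The dendritic cell list stayed at or under 52.5 CPM, the T cell list at or under 16.3 CPM, the platelet list at or under 1.96 CPM, and erythroid and basophil markers at 0. Leaving out cells that held markers of other types, 201 of them in Mo2, an alternative chosen after seeing the data, also left the third library of day 14 with 19 Mo2 cells, below the limit of 20, so day 14 was then 1 library. For day 14, the part of these cells cannot be told apart from the loss of that library. The zeros above are listed values, not measured absence: S100a8 had a stored entry in 1194 of 1898 Mo2 cells but reached 0.5 in 1 of them, and S100a9 in 877 cells, reaching 0.5 in 1. The step that left such small remainders is not given in the sources used here.

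Mo2 made up the larger part of blood monocytes at day 2 after stroke and a small remainder at day 14. Its share of monocytes was 31.8%, 50.7%, 35.2% and 18.3% in the sham libraries, 51.8%, 59.2%, 57.0% and 50.9% at day 2 after stroke, and 1.51%, 2.14% and 4.71% at day 14. The groups did not overlap, but the highest sham library and the lowest stroke library at day 2 lay next to each other. The means were 34.0% ± 13.3 (SD, n = 4) in sham, 54.7% ± 3.999 (SD, n = 4) at day 2 and 2.79% ± 1.70 (SD, n = 3) at day 14. Day 2 after stroke was 20.7 percentage points above sham (exact two-sided permutation p = 0.0286, 0.0571 adjusted over 6 share comparisons). Day 14 was 31.2 points below sham, with a sham mean 12.2 times as high (exact permutation p = 0.0571, adjusted 0.0686), and 51.9 points below day 2 after stroke, whose mean was 19.6 times as high (exact permutation p = 0.0286, adjusted 0.0571). None of these passed 0.05 after adjustment, and 0.0286 is the smallest p that 4 against 4 or 3 against 4 libraries allow.

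**Figure D1:**
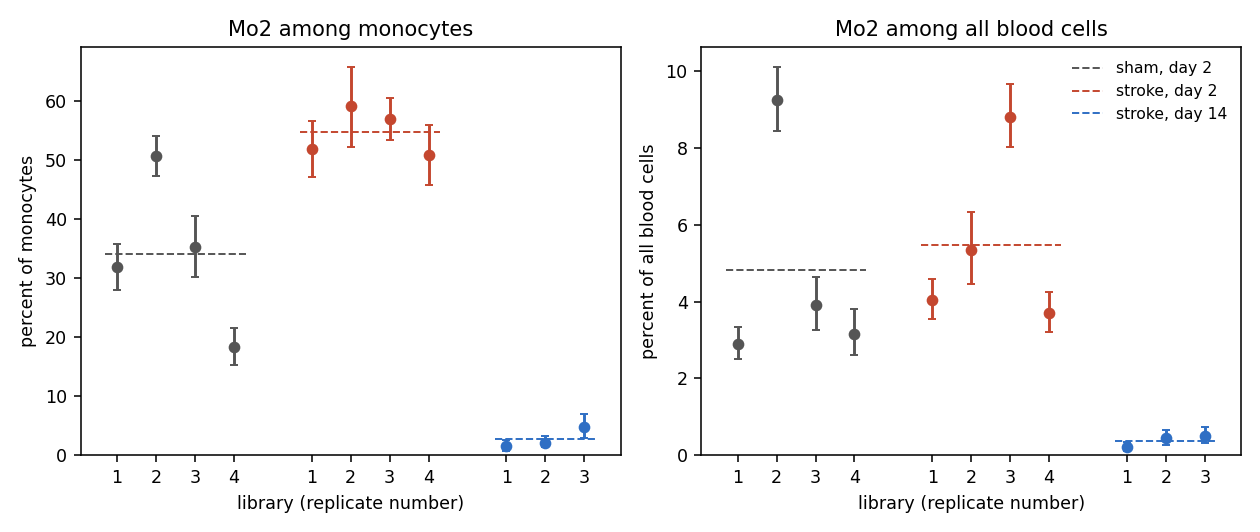
Mo2 cells as a percent of monocytes (left) and of all blood cells (right) in each of the 11 libraries, with exact 95% binomial intervals that cover counting error alone; dashed lines are group means. The 3 libraries of day 14 lie at 1.51% to 4.71% of monocytes, below every library of day 2.

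Among all blood cells the day 2 groups were alike in range. Mo2 formed 2.91%, 9.26%, 3.91% and 3.17% of sham blood cells, 4.03%, 5.34%, 8.82% and 3.70% at day 2 after stroke, and 0.208%, 0.444% and 0.495% at day 14. The sham and day 2 libraries overlapped (difference 0.662 points, exact permutation p = 0.571), and all 3 libraries of day 14 were below both. The day 14 mean was 4.43 points below sham (adjusted exact permutation p = 0.0686) and 5.09 points below day 2 after stroke (adjusted exact permutation p = 0.0571). A negative binomial fit of the cell counts in edgeR pooled the spread over the 5 monocyte codes. These codes are parts of 1 total, so their counts are not independent. For the share of Mo2 among monocytes the fit gave a log2 difference of -3.64 ± 0.52 for day 14 against sham (SE, edgeR adjusted p = 6.42e-05). Against day 2 after stroke the difference at day 14 was -4.32 ± 0.54 (edgeR adjusted p = 1.53e-05). The same fit gave 0.68 ± 0.41 for day 2 against sham (adjusted p = 0.389).

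Other subtypes filled the monocyte pool at day 14. Monocytes as a whole were 9.13% to 18.2% of blood cells in sham, 7.28% to 15.5% at day 2 after stroke and 10.51% to 20.7% at day 14. Mo1 formed 25.1% ± 15.1 of monocytes in sham, 14.1% ± 10.6 at day 2 and 43.3% ± 8.04 at day 14 (SD, n = 4, 4 and 3). Mo4 formed 4.72% ± 4.49, 4.13% ± 2.01 and 15.0% ± 2.59 in the same groups, and Mo3 30.3%, 23.1% and 29.7%. Neutrophils ranged from 12.4% to 48.5% of blood cells in sham, 11.7% to 69.6% at day 2 and 11.4% to 22.4% at day 14, and their part in the shares of all blood cells was not tested. Of the library codes, the first sham library shared its stem with the first day 2 stroke library, and the second with the second. Within these pairs Mo2 was 31.8% against 51.8% and 50.7% against 59.2% of monocytes. The day 14 codes differed from one another and shared a stem with no other library. The same held for the remaining sham and day 2 stroke libraries, so an unshared stem does not set day 14 apart. Day 14 could therefore not be compared with another group within a stem, and the part of whatever the codes stand for was not tested.

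Mo2 held 9 of the 13 genes of a classical monocyte list at higher levels than the other monocytes summed, in all 10 libraries. Because the subtype codes come from the same cells and genes, what follows is a description with no test. It covers 10 libraries, and a ratio is the mean over libraries of log2((CPM in Mo2 + 10)/(CPM in the other monocytes + 10)). Levels of single subtypes instead sum the cells of all 11 libraries. At day 14 Mo1, Mo4 and Mo2 averaged 43.3%, 15.0% and 2.79% of monocytes, so such levels mix subtype with time. Of 6181 genes with at least 20 CPM, 79 (1.28%) were higher in Mo2 in all 10 libraries and 200 (3.24%) were lower in all 10, and the median ratio was -0.19.

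The adhesion and chemotaxis list was mixed: of its 14 genes at 20 CPM or more, 2 were higher in Mo2 in all 10 libraries, 2 were lower in all 10 (Itgb1, an integrin subunit, and S1pr5, a sphingosine phosphate receptor), and 10 had a lower mean (median log2 ratio -0.62). The receptors and adhesion genes named here are those among the 25 highest. Ccr1, a receptor for inflammatory chemokines, had a pooled level of 288 CPM in Mo2 against 53.1 CPM in the other monocytes (log2 ratio 1.95 ± 0.88, SD over 10 libraries). Ccr2, the receptor that draws monocytes out of the bone marrow, was at 3678 against 2160.0 CPM (1.07 ± 0.64). Its excess over the rest came from Mo3, where Ccr2 was at 421 CPM, since Mo1 and Mo4 held 3292 and 3315 CPM. Jaml, an adhesion protein of migrating leukocytes, was at 219 against 43.5 CPM (1.55 ± 0.67), and Bst1 (CD157), an ectoenzyme of myeloid cells, at 201 against 61.0 CPM (1.43 ± 0.39).

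Vcan, Mmp8, Fn1, Chil3 and F13a1 were higher in the pooled cells of Mo2 than in those of each other subtype. Vcan, the proteoglycan versican (mm10 chr13:89655309-89743027), was at 729 CPM in Mo2, 171 in Mo1, 6.75 in Mo3, 224 in Mo4 and 104 in Mo5. Mmp8, a collagenase (mm10 chr9:7558429-7568486), was at 636 CPM in Mo2 and 188, 20.2, 207 and 83.7 CPM in Mo1, Mo3, Mo4 and Mo5. Fn1, fibronectin, was at 498 CPM in Mo2 and 252, 13.6, 175 and 102 CPM in the others. Chil3, the chitinase-like protein Ym1 (mm10 chr3:106147554-106167564), stood at 7743 CPM in Mo2, 3511 in Mo1, 389 in Mo3, 3442 in Mo4 and 1113 in Mo5. F13a1, the A subunit of coagulation factor XIII, was at 2271 CPM in Mo2 and 1580.0, 30.7, 1379.9 and 819 CPM in Mo1, Mo3, Mo4 and Mo5. Mo2 was thus the highest of the 5 subtypes for each of these genes in these pools, with Mo1 and Mo4 between it and Mo3. In the 8 libraries of day 2 the log2 ratio of Mo2 to the other monocytes was 2.18 for Vcan and 2.27 for Mmp8. It was 1.94 for Fn1, 1.62 for Chil3 and 1.67 for F13a1.

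Thinned to 400 counts a cell, Vcan was seen in 24.7% of Mo2 cells (95% exact interval 22.6 to 27.0), in 6.31% of Mo1 cells (5.17 to 7.63) and in 0.0190% of B cells. Without thinning these shares were 39.8%, 10.8% and 0.0273%. Mmp8 was seen in 22.6% of Mo2 and 6.69% of Mo1 cells, and in none of the thinned B cells (39.7%, 12.6% and 0 without thinning). Chil3 was seen in 77.6% of Mo2 and 52.2% of Mo1 cells against 0.0855% of B cells (79.6%, 60.6% and 0.158% without thinning). So most Mo2 cells held a Chil3 count, while a single gene such as Vcan was seen in a minority of them at this depth. These shares pool cells of all 11 libraries, and the intervals leave out the spread between libraries. By group and without thinning, Vcan had a stored entry in 39.2% of Mo2 cells and 7.52% of other monocytes in sham. At day 2 after stroke the shares were 41.4% and 12.4%.

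**Figure D2:**
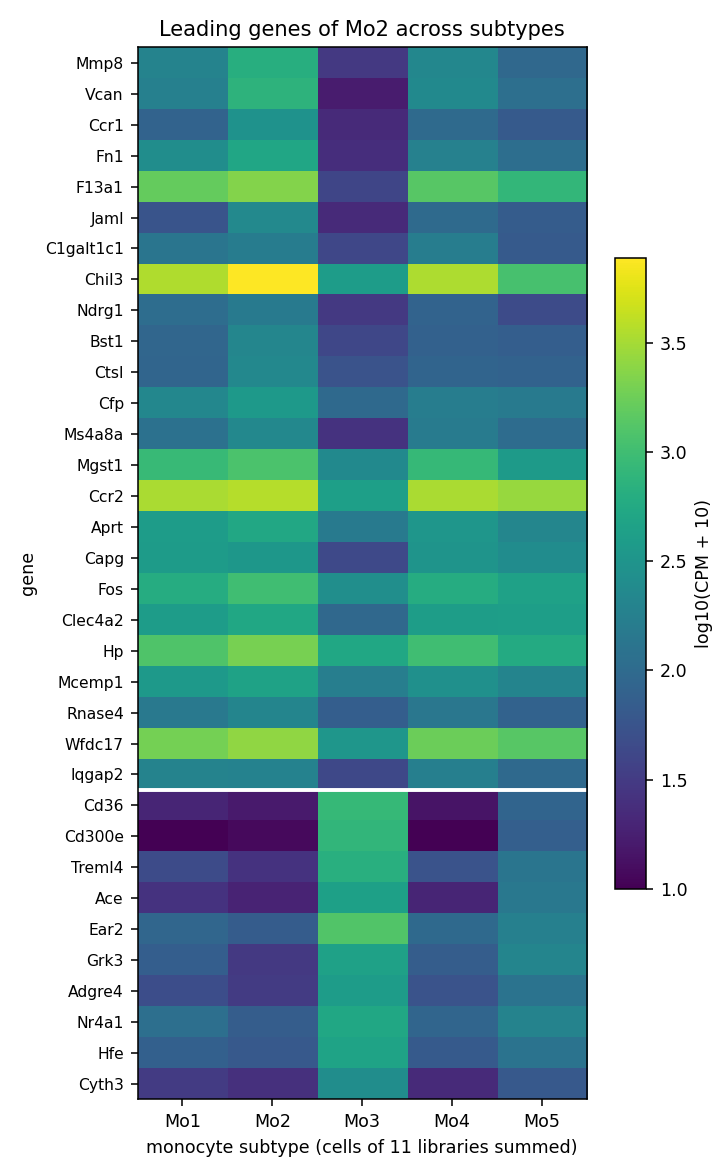
Pooled level of the named genes among the 25 highest (above the white line) and of the 10 lowest in Mo2 against the other monocytes, as log10(CPM + 10), in the summed cells of each of the 5 subtypes. Mo2 is the brightest column for Mmp8, Vcan, Ccr1 and Chil3, and Mo3 for the lower 10 genes from Cd36 to Cyth3.

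The other named genes among the 25 highest had log2 ratios of 0.83 to 1.48. Cfp, the complement regulator properdin, had a log2 ratio of 1.34 ± 0.50, Hp (haptoglobin, which binds free haemoglobin) 0.93 ± 0.33, and Fos, an immediate-early transcription factor, 0.95 ± 0.34. Ctsl, the lysosomal protease cathepsin L, stood out for a small spread over libraries at 1.35 ± 0.29, and Mgst1, a microsomal glutathione transferase, was at 1.19 ± 0.54. The remaining genes were C1galt1c1, Ndrg1, Ms4a8a, Aprt, Capg, Clec4a2, Mcemp1, Rnase4, Wfdc17 and Iqgap2, at 0.83 to 1.48. Of these, Capg was higher in Mo1 (377 CPM) than in Mo2 (325 CPM), Iqgap2 was at 186 CPM in Mo1 and 181 CPM in Mo2, and C1galt1c1 was at 159.6 CPM in Mo4 and 152 CPM in Mo2, so their excess was over the other monocytes summed. Several of the 25 are also abundant in neutrophils of the same blood, where Mmp8 reached 2750.4 CPM and Ccr1 1042 CPM. Vcan, Fn1, F13a1 and Ccr2 are not: they were at 0.345, 0.0788, 1.34 and 0.566 CPM in neutrophils.

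The genes lowest in Mo2 against the other monocytes summed were highest in Mo3, and many are genes of nonclassical monocytes. Cd36, a scavenger receptor for lipids, was at 6.40 CPM in Mo2 and 333 CPM in the other monocytes (log2 ratio -4.55 ± 1.34). Cd300e, an activating receptor, had a ratio of -4.53 ± 1.20, Treml4, a receptor of late monocytes, -3.76 ± 0.59, and Ace, angiotensin-converting enzyme, -3.51 ± 1.37. Nr4a1, the factor that nonclassical monocytes depend on, was at 60.6 against 260.1 CPM (-2.48 ± 1.30), and Ear2, Grk3, Adgre4, Hfe and Cyth3 made up the 10. Mo3 held the highest level of each of them. Mo1 and Mo4 were also far below Mo3, so these low levels were not particular to Mo2. In the pooled cells of all 11 libraries, Cd36 was at 9.95 CPM in Mo1, 6.37 in Mo2, 4.11 in Mo4 and 850 in Mo3. Cd300e was at 0, 1.74, 0 and 794 CPM in the same order. Grk3 was lower in Mo2 (20.0 CPM) than in Mo1 (63.8 CPM) and Mo4 (61.4 CPM).

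The classical list of 13 genes was higher in Mo2 in all 10 libraries for 9 members and lower in all 10 for none (median log2 ratio 1.19). Ly6c2, which encodes Ly6C, was higher in 8 of 10 libraries (0.87 ± 0.76), but Mo1 (1791 CPM) and Mo4 (2718 CPM) exceeded Mo2 (1366 CPM). Plac8 and Fcgr1 had mean ratios of -0.13 and -0.39. Of 17 nonclassical genes with 20 CPM or more, 13 were lower in all 10 libraries and none was higher (median -2.36). That comparison is with the other monocytes summed, Mo3 included.

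Other lists placed Mo2 low for antigen presentation, survival and interferon genes. Of 6 MHC class II genes, 4 were lower in all 10 libraries (Cd74, H2-Aa, H2-Ab1 and H2-Eb1, median -3.09), with the highest levels in Mo5. Of 6 survival genes, Bcl2, Bcl2a1b and Bcl2a1d were lower in all 10 at -2.29 ± 1.30, -3.11 ± 0.45 and -2.31 ± 0.47, whereas Mcl1, another anti-apoptotic gene, was at 0.31 ± 0.28. Of 11 interferon-response genes, Ifit2, Irf7 and Bst2 were lower in all 10 (median -1.12), and Mo4 had the highest level of each. Lipid genes were lower in all 10 for 4 of 8 (Apoe, Cd36, Fabp4 and Pparg), and transcription factors for 4 of 12 (Nr4a1, Klf2, Irf5 and Pou2f2). Receptors for colony-stimulating factors (4 genes) and Toll-like receptors with Cd14 (7 genes) had no member higher or lower in all 10. None of the 8 proliferation genes reached 20 CPM.

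A group of acute-phase and granule genes stood out in Mo2 after the values were seen. They are outside the naming rule, either because not every library had the same sign or because neutrophils hold more than 10 times the Mo2 level (Lcn2 and Wfdc21). Saa3, an acute-phase apolipoprotein of macrophages, was at 722 CPM in Mo2 and 53.5 CPM in the other monocytes, with 2.62 CPM in neutrophils. Lcn2, the iron-siderophore binding lipocalin, was at 308 against 29.5 CPM, Wfdc21, a small secreted protein with a whey acidic domain, at 411 against 38.3 CPM, and Lrg1, a leucine-rich glycoprotein of the acute phase, at 346 against 51.6 CPM. Neutrophils held 4796, 6331 and 3278 CPM of these last 3 genes. At 400 counts a cell, 36.6% of Mo2 cells had a count of at least 1 of the 4 genes, against 4.55% of Mo1 cells and 0.0665% of B cells (48.3%, 8.19% and 0.0763% without thinning). Day 14 supplied 57 of 1898 Mo2 cells and 2300 of 4660 other monocytes, so these pools and shares mix subtype with time. In the 8 libraries of day 2 the log2 ratio of Saa3 was 2.19 ± 1.39 (SD), higher in Mo2 in 7. Those of Lcn2, Wfdc21 and Lrg1 were 2.39 ± 0.50, 2.39 ± 0.54 and 1.74 ± 0.31, higher in all 8.

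Saa3 varied widely between libraries of 1 group. It was at 1109, 108, 1306 and 44.6 CPM in sham Mo2, 1925, 373, 83.2 and 158 CPM at day 2 after stroke, and 443, 0 and 0 CPM at day 14. The sham and day 2 groups overlapped. Lcn2 was at 269.9, 295, 261 and 212 CPM in sham, 387, 739.7, 167 and 343 CPM at day 2, and listed at 0 in the 3 libraries of day 14. Wfdc21 was at 671, 399.96, 360.0 and 147 CPM, then 534, 523, 289.9 and 265 CPM, and at 0 in all 3 libraries of day 14. Lrg1 was at 480.2, 124, 443 and 120.0 CPM in sham, 723, 209, 158 and 240.1 CPM at day 2, and 0, 0 and 31.5 CPM at day 14. Sham and stroke overlapped at day 2 for all 4 genes.

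At day 14 each of Lcn2 and Lrg1 had 1 stored entry in Mo2 and Wfdc21 had 0, and the floor of 3 counts over the summed Mo2 cells is 88.8 CPM. Set against that floor, the pooled Lcn2 level was 3.05 times as high in sham and 3.94 times as high at day 2 after stroke. The ratios were 5.07 and 4.39 for Wfdc21, and 3.35 and 4.48 for Lrg1. Without the first stroke library of day 2, a check chosen after seeing the data, the last ratio was 2.33. The step that made the counts fractional is not known, and the floor leaves out the spread between libraries. These ratios are therefore no lower bounds. Saa3 was seen in 1 Mo2 cell at day 14, which gives no fold. No comparison of day 14 within Mo2 called any of these 4 genes (edgeR adjusted p = 0.227 to 0.453).

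**Figure D3:**
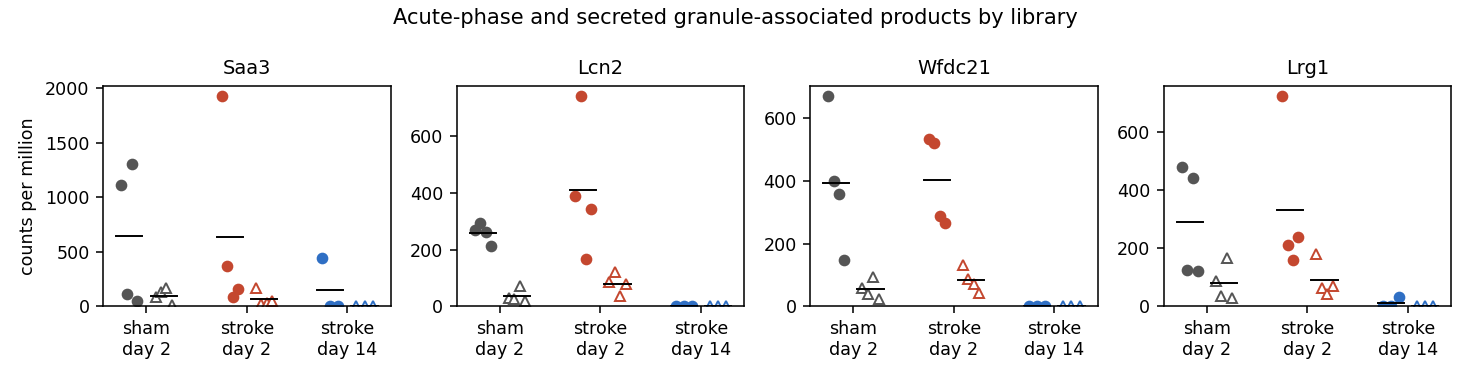
Level in CPM of Saa3, Lcn2, Wfdc21 and Lrg1 in each library, for Mo2 (filled circles) and the other monocytes (open triangles); bars are group means. Mo2 lies above the other monocytes in most libraries of day 2, and at day 14 no value exceeds 31.5 CPM except Saa3 in the library with 13 Mo2 cells (443 CPM).

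Summed over all monocytes, where day 14 has more cells, 3 of the 4 genes were called lower at day 14 than in sham, where 0.149% of 6706 genes were called lower. Lcn2 and Wfdc21 had an edgeR adjusted p of 0.00143 and Lrg1 of 0.0119, while Saa3 (log2 change -5.82 ± 1.43) had 0.169. Saa3 over all monocytes was at 477, 119, 578 and 14.3 CPM in sham and 7.72, 5.48 and 0 CPM at day 14. For Lcn2, Wfdc21 and Lrg1 the size of the change depended on the small remainders: with every entry rounded up it was -2.90, -4.75 and -4.62 on the log2 scale, and the 3 calls were still made. Without the first or the second library of day 14 the Lrg1 call was lost (edgeR adjusted p = 0.0849 and 0.140). In such a sum, fewer cells of a type and less RNA per cell cannot be told apart. The fall was not particular to monocytes: stored entries were also rarer in neutrophils at day 14 than in sham. They were in 34.8% against 77.9% of neutrophils for Lcn2, 34.8% against 90.7% for Wfdc21 and 31.6% against 79.4% for Lrg1. The part of neutrophil RNA in the monocyte values was not tested. Over the monocytes other than Mo2 the same 3 genes were also called lower (edgeR adjusted p = 0.0110, 0.0100 and 0.0110), among 4 of 4876 genes called lower (0.082%). The sums over all and over the other monocytes were chosen after seeing the data, and the calls over the other monocytes changed with the rounding of the small remainders. At day 14 Lcn2 had a stored entry in 38 of 2300 other monocytes and Wfdc21 in 17, none at 0.5 or above, and with every entry rounded up the edgeR adjusted p became 1.0 for Lcn2 and 0.0928 for Wfdc21 and Lrg1. They were also lost with the fit limited to the 2 groups compared (0.0816 to 0.0817) and without the second library of day 14 (0.0966 to 0.199). Without the first or the third library of day 14 Lcn2 and Lrg1 were not called (0.0543 to 0.104).

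Prtn3, proteinase 3, a granule protease made by early myeloid cells, was also singled out after its values were seen. Mo2 held 189, 89.8, 208 and 148 CPM in sham, 176, 146, 113 and 111 CPM at day 2 after stroke, and 295, 0 and 281 CPM at day 14. The groups within Mo2 overlapped, and the change from sham to day 14 was -0.65 ± 0.80 on the log2 scale (edgeR adjusted p = 0.844). That fit leaves out the first library of day 14 (295 CPM) and carries the shift of all genes (median -0.46), while the pooled level of the 3 libraries was 176 CPM against 150.2 CPM in sham. Over all monocytes Prtn3 fell by 2.97 ± 0.39 on the log2 scale (edgeR adjusted p = 0.00203), from 86.9, 71.4, 118 and 60.2 CPM in sham to 13.5, 6.93 and 12.8 CPM. Without the second library of day 14 this call was lost (edgeR adjusted p = 0.0554). Over the other monocytes the change was -2.61 ± 0.58 (edgeR adjusted p = 0.149).

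The promoters of Saa3, Lcn2 and Lrg1 are shown because these genes were the acute-phase members with a sequence at hand. They run from 250 bases before to 50 bases after the start (RefSeq, GRCm38.p6, all on the minus strand). Saa3 is at chr7:46715627-46715926, Lcn2 at chr2:32387690-32387989 and Lrg1 at chr17:56121897-56122196, and capitals mark matches to TTNNGNAA on either strand, a loose form of the site bound by C/EBP factors, which drive myeloid and acute-phase genes:
Saa3: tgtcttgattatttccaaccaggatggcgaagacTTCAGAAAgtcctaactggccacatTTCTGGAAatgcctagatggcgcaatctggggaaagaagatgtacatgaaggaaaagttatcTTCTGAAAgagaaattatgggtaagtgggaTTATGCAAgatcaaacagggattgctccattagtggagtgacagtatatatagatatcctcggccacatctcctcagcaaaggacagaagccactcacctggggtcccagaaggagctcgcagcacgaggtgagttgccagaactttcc
Lcn2: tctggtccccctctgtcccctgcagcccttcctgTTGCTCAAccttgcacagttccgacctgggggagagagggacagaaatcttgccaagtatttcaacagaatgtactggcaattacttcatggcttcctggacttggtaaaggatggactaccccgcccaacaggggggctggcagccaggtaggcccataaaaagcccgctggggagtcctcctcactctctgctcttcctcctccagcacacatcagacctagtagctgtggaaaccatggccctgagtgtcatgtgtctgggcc
Lrg1: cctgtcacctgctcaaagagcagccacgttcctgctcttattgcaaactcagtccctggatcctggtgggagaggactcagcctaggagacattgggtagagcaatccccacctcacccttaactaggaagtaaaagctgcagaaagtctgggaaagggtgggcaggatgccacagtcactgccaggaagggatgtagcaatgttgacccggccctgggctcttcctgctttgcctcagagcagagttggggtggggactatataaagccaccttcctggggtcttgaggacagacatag

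The Saa3 promoter held 4 such matches, that of Lcn2 held 1 and that of Lrg1 none. At least 1 match was present in 40.7% of all 32851 promoters of this length, and in 14 of the 22 promoters found for 19 of the 25 highest genes (63.6%). Some genes have several promoters. Counted by gene, a match was present for 11 of the 19 and for 11930 of all 27025 genes. The letters TTCNNNGAA (STAT factors) were in 8.30% of all promoters and in 3 of the 22, and the NF-kB motif was in 0.411% and in none of the 22. The motifs can overlap, and both strands were read.

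Within Mo2, no gene was called between stroke and sham at day 2 in the main fit. Of 4406 genes tested 0 (0%) passed an adjusted p of 0.05 in edgeR. Before adjustment 60 had p under 0.05, and the DESeq2 count was also 0. On simulated data of this size the fit called 11 of 50 2-fold rises and 6 of 50 2-fold falls. A lack of calls therefore does not show a lack of change. An edgeR fit with the replicate number as a block called 3, all higher (smallest adjusted p = 0.0368), but these numbers were not shown to pair the libraries. The values below are those with the smallest p in the main fit and did not pass there. Fkbp5, a glucocorticoid-induced co-chaperone, was at 27.5, 33.9, 35.0 and 0 CPM in sham and 96.7, 305, 37.6 and 139 CPM at day 2 after stroke, with each stroke library above each sham library (log2 difference 2.12 ± 0.53, edgeR adjusted p = 1.0). Crispld2, a secreted protein that is also induced by glucocorticoids, was at 13.8, 33.4, 10.9 and 2.54 CPM in sham. After stroke it was at 74.4, 258, 33.3 and 88.8 CPM, so only the highest sham and the lowest stroke library overlapped. Klf9, a glucocorticoid-responsive transcription factor, differed by 2.49 ± 0.73, Glul, glutamine synthetase, by 1.12 ± 0.34, and Apoe, apolipoprotein E, by 1.07 ± 0.28 (edgeR adjusted p = 1.0 for each). The highest value of all 5 genes was in the second stroke library.

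On the lower side Itpr2, a calcium channel of internal stores, differed by -1.80, Mrpl54, a mitochondrial ribosomal protein, by -0.90, and Rfc1, a clamp loader subunit, by -0.94. Ankrd12 differed by -1.35 and Gfm1, a mitochondrial elongation factor, by -1.58. None of these passed the test (edgeR adjusted p = 1.0). Of the glucocorticoid-response list 6 of 6 tested members had a positive difference (median 0.92) and of the early-response list 8 of 8 (median 0.61), against 2060 of 4406 genes tested overall (median -0.02). None of these members was called, and the groups overlapped in the summed level of either list. Early-response genes summed to 2649.6, 2336, 2009 and 1737 CPM in sham Mo2 and 2715, 5102, 2637 and 1919.8 CPM after stroke, and glucocorticoid-response genes to 511, 517, 335 and 236 CPM and to 799, 1807, 413 and 641 CPM. Among the libraries of day 2, the second stroke library was the highest for both lists, in Mo2, in the other monocytes and in neutrophils. Jun, an early-response factor, was at 108, 141, 62.6 and 43.8 CPM in sham and 139.9, 845, 256 and 142 CPM after stroke (1.58 ± 0.48). Cd14, the co-receptor for endotoxin, was at 79.6, 66.5, 46.2 and 34.0 CPM in sham and 117, 160.2, 88.3 and 133 CPM after stroke, without overlap (1.02 ± 0.34, edgeR adjusted p = 1.0).

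**Figure D4:**
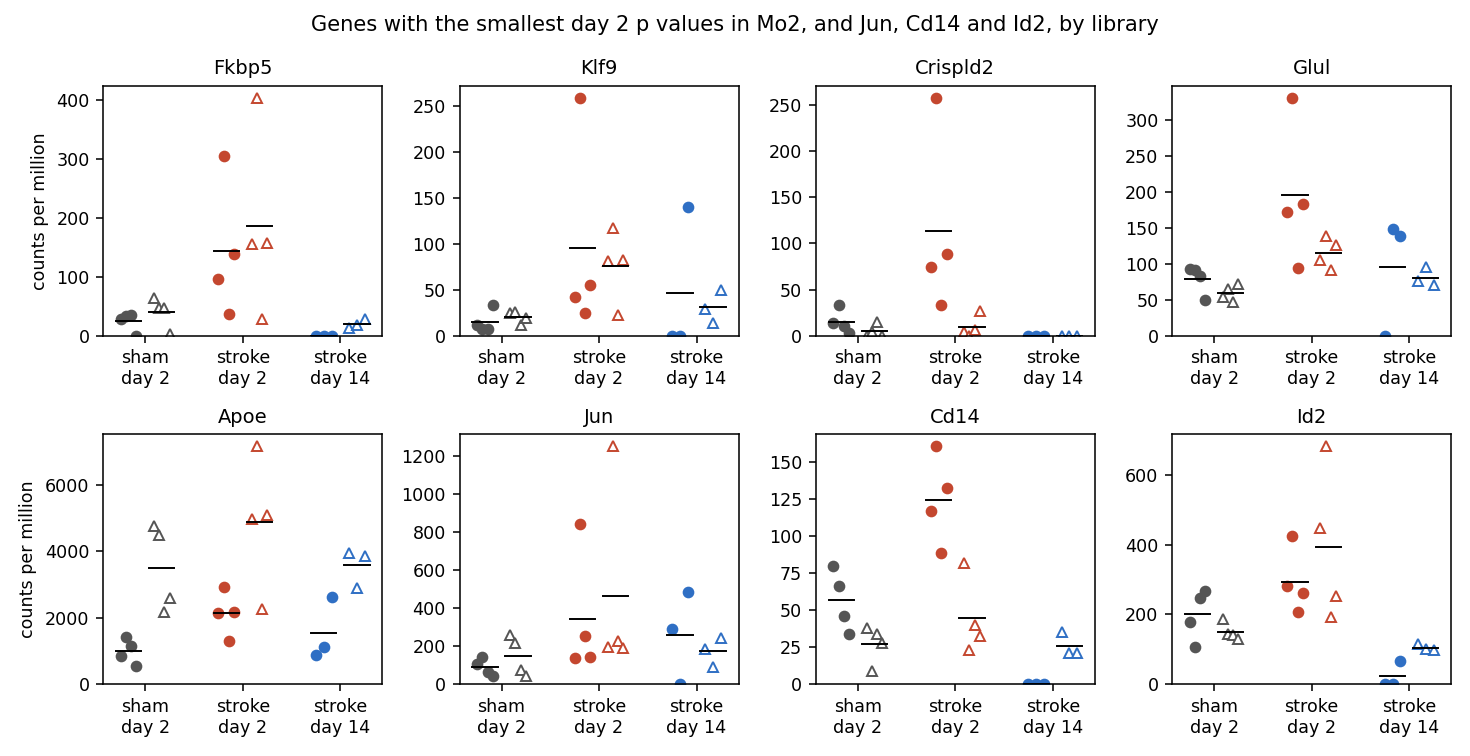
Level in CPM of the 5 genes with the smallest day 2 p among the higher ones in Mo2 (Fkbp5, Klf9, Crispld2, Glul and Apoe), and of Jun, Cd14 and Id2, in each library for Mo2 (filled circles) and the other monocytes (open triangles); bars are group means. The second stroke library of day 2 is the highest Mo2 value in most panels, for example 305 CPM for Fkbp5.

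The day 2 change was also compared between Mo2 and the other monocytes. Of 6085 genes tested for a different change in Mo2 and in the other monocytes between sham and day 2, 1 was called (0.0164%). It was S100a8, named after its value was seen, and it rested on 496 CPM in the third sham library, from 1 cell, and on 116 CPM in the other monocytes of the second stroke library. Neutrophil markers summed to 645 CPM in that sham Mo2 library and to 636 CPM in those other monocytes, against 60.2 to 104 CPM in the other monocytes of the other day 2 stroke libraries. Without the second stroke library 0 genes were called (smallest edgeR adjusted p = 0.149). Without the third sham library only Apoe was, with a more positive change in Mo2 (1.00 ± 0.20, edgeR adjusted p = 0.00223, against 0.73 ± 0.18 and 0.101 with all libraries). With entries rounded up 0 genes were called (206 at an unadjusted p under 0.05). On simulated data the test for a different change at day 2 called 0 of 50 2-fold rises and 1 of 50 2-fold falls. Few calls therefore do not show that both parts changed alike. Fkbp5 in the other monocytes was at 63.7, 46.6, 47.1 and 2.50 CPM in sham and 156, 404, 28.7 and 157 CPM after stroke.

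At day 14 Chil3 was at its lowest in Mo2, on few cells. Chil3 was at 4995, 6942, 6668 and 6539 CPM in sham Mo2, 8619, 13310.1, 4334 and 12345 CPM at day 2 after stroke, and 2785, 1994 and 3809 CPM at day 14. All 3 libraries of day 14 were below all 8 of day 2. Chil3 fell by 2.25 ± 0.40 on the log2 scale from day 2 to day 14 after stroke (edgeR adjusted p = 0.0497), the only gene called of 4406 (0.0227%), and DESeq2 called 1 as well. The call was lost with scaling by library size alone (adjusted p = 0.421), with entries rounded up (0.0716), and without any stroke library of day 2 but the third, or either fitted library of day 14 (0.0995 to 0.637). Leaving out either library of day 14 leaves 1 library of 22 cells there, taken to vary like the other groups. The change stayed between -1.77 and -3.00 on the log2 scale in all of these. Against sham, Chil3 differed by -1.65 ± 0.40 (edgeR adjusted p = 0.264).

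No gene was called within Mo2 between day 14 and sham (0 of 4406, 0%, with 485 at an unadjusted p under 0.05 and 0 called by DESeq2). This fit rests on 2 libraries of 22 Mo2 cells each at day 14, and on simulated data of this size it called few of the changed genes, so a lack of calls does not show a lack of change. The median change of all genes was -0.46 with the main scaling and 0.02 with library size alone, so the values are read against that shift. S100a11, a calcium-binding protein, was at 1374, 876, 1083 and 1279 CPM in sham and 650.2, 391 and 316 CPM at day 14, without overlap (-2.34 ± 0.45, edgeR adjusted p = 0.110). Gngt2, a G protein subunit, differed by -2.91 and Wfdc17, a secreted whey acidic protein, by -1.49 (edgeR adjusted p = 0.264 for both). On the upper side Mob3a, Dock1, Stx16, Prkab2 and Ccrl2 differed by 1.52 to 3.43 (edgeR adjusted p = 0.382 to 0.384). Against day 2 after stroke, S100a11 differed by -2.35 ± 0.45 (edgeR adjusted p = 0.0526), Cd44, the hyaluronan receptor, by -2.92, and Asap1, a regulator of small GTPases, by -3.56. Uqcc3, Dyrk2, Lemd2, Mdm4 and Wbp4 were higher in that comparison, by 1.87 to 3.08. None of these genes passed.

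Hp was at 1975, 1794, 2191 and 1719 CPM in sham Mo2, 2042, 2263, 2082 and 2073 CPM at day 2 after stroke, and 565, 970.4 and 1423 CPM at day 14. All 3 libraries of day 14 were below the other 8, and the difference from day 2 was -1.33 ± 0.31 (edgeR adjusted p = 0.227). Of the 25 highest genes 21 had a negative change from sham to day 14 within Mo2 (median -0.42) with the main scaling and 12 with library size alone (median 0.07), where the median of all genes was -0.46 and 0.02.

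Vcan, Mmp8, F13a1 and Ccr2 were not called within Mo2 at day 14, where Mmp8 had a stored entry in 10 of 57 cells. Their levels are given as values alone. Vcan was at 764, 1001, 366 and 397 CPM in sham Mo2, 557, 1522, 1007 and 559 CPM at day 2 after stroke and 439, 226 and 636 CPM at day 14, with overlap. Mmp8 was at 485, 626, 709 and 509.9 CPM, then 573, 1193, 838 and 618 CPM, then 0, 459.8 and 245 CPM, with all 3 values of day 14 the lowest. F13a1 was at 2125, 2769.7, 1754 and 1167 CPM in sham, 1896, 3208, 2906 and 2179.9 CPM at day 2 and 1319, 2559 and 3989 CPM at day 14. Ccr2 was at 3626, 4363, 3681 and 3295 CPM, then 2828, 4131, 5596 and 2558 CPM, then 3363, 4635 and 5567 CPM. The F13a1 and Ccr2 groups overlapped, with their highest or second highest value in the third library of day 14.

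**Figure D5:**
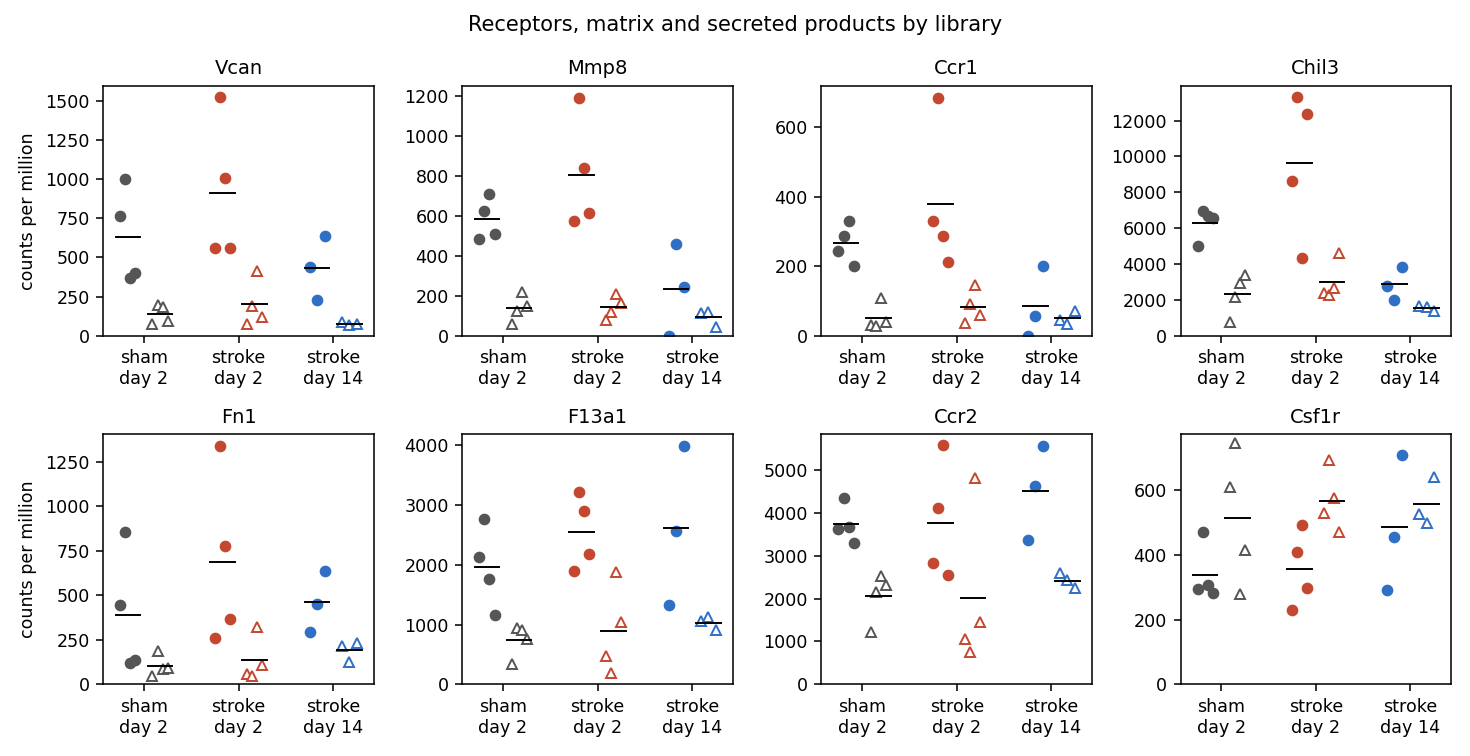
Level in CPM of 8 receptor, matrix and secreted-product genes in each library for Mo2 (filled circles) and the other monocytes (open triangles); bars are group means. Chil3 in Mo2 is at 1994 to 3809 CPM at day 14, below all 8 libraries of day 2, while Ccr2 and F13a1 in Mo2 overlap between groups.

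Between Mo2 and the other monocytes, 39 of 6085 genes (0.641%) had a different change from sham to day 14, all with a more negative change in Mo2. They included Chil3 (-1.32 ± 0.24), Plac8 (-1.36 ± 0.25), the S100 genes S100a11, S100a4 and S100a10 (-2.08, -1.11 and -1.90), the peroxiredoxins Prdx5 and Prdx1 (-1.44 and -2.02), the actin-binding Tmsb10 (-1.18), the phosphatase subunit Ppp1ca (-2.84) and the lysozyme Lyz2 (-0.83), with edgeR adjusted p of 0.000265 to 0.0120. Such a difference need not be a fall in Mo2. In the fitted libraries Lyz2 averaged 47487 CPM in sham Mo2 and 65597 CPM at day 14, against 32609 and 48445 CPM in the other monocytes. The median difference over all genes was -0.62 with the main scaling and -0.01 with library size alone, under which 0 genes were called (273 at an unadjusted p under 0.05). Leaving out the first sham library left 8 calls and the second 12. Leaving out the second library of day 14 left 2 calls and the third 7, each with 1 library of Mo2 at day 14 that is taken to vary like the rest. Depth moves with this contrast: the median count per cell at day 14 was 510.5 to 584 in Mo2 and 562 to 764 in the other monocytes, and its part was not tested.

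The 25 highest genes were also read over all monocytes summed. Genes and subtype codes come from the same cells, and the genes were picked as higher in Mo2. A smaller share of Mo2 by itself lowers them in such a sum, so this is no independent support for the shares. The 25 also had at least 100 CPM in Mo2, so the share of all genes called is no matched background. Between sham and day 2 after stroke 24 of the 25 had a positive difference (median 0.50) and 0 were called (0% of 6706; 189 genes at an unadjusted p under 0.05 and 0 by DESeq2). Between sham and day 14, 22 were negative (median -0.43) and 2 were called lower, Hp (-1.03, edgeR adjusted p = 0.0480) and Jaml (-1.63, adjusted p = 0.0205), against 0.149% of all genes. DESeq2 called 7 of the 25, and 0 were called with entries rounded up or without the second sham library or any library of day 14.

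Between day 2 and day 14 after stroke, 23 of the 25 were negative over all monocytes (median -0.89) and 8 were called lower, against 0.447% of all genes. The 8 were Vcan (-2.79 ± 0.43, edgeR adjusted p = 0.00388), Mmp8 (-2.37 ± 0.34, adjusted p = 0.00253), Chil3 (-2.12 ± 0.31, adjusted p = 0.00253), Ccr1 (-2.28 ± 0.41, adjusted p = 0.0110), Jaml, Bst1, Ctsl and Hp. Vcan over all monocytes went from 357, 1006, 737 and 352 CPM to 94.2, 71.6 and 92.7 CPM, with no overlap. Without the second library of day 14, 4 of the 25 were called. Over the monocytes other than Mo2, 0 of the 25 were called in any of the 3 comparisons (0%, 0.082% and 0.144% of genes called lower), with medians of 0.18, 0.12 and -0.25. The 25 were picked for lower levels in these cells, for example 43.5 CPM for Jaml, so a lack of calls does not show a lack of change. Before adjustment, 103, 198 and 210 of 4876 genes had p under 0.05 in these fits, and by DESeq2 none of the 25 was called either. Csf1r over all monocytes was not called, at 0.34 ± 0.21 against sham and 0.31 ± 0.21 against day 2 (edgeR adjusted p = 0.999 and 0.859).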

How the data were processed

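The authors deposited expected counts per gene and cell, which need not be whole, from Drop-seq reads, with 16623 genes in 1 table per library, and the step that made them fractional, the aligner and the cell filters are not given in the sources used here. The genome build mm10 and Seurat come from the submitters' processing notes. Cell type codes, detected gene counts and the percent of mitochondrial counts are the authors' deposited values. Summed counts were scaled to CPM here. CPM below 1e-06 are shown as 0.

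Counts were summed per library over Mo2 cells, rounded and fitted with edgeR 4.0.16 (TMM scaling, filterByExpr, quasi-likelihood F test, Benjamini-Hochberg adjustment over all genes tested, threshold 0.05), in libraries with at least 20 Mo2 cells. A term for subtype by group, with library as a block, compared Mo2 with the other monocytes. DESeq2 1.42.0 was an alternative. Shares were compared by exact permutation over libraries (scipy 1.17.1). The fitting code was tested on simulated data. Within Mo2 at day 2 it called most of the 4-fold changes but few of the 2-fold ones. At day 14 it called few of either, and unchanged genes also had a median below 0. For the response of Mo2 against the other monocytes at day 2, it called 33 of 50 4-fold rises and 13 of 50 4-fold falls. Named genes were the 25 highest and 10 lowest ratios among genes with at least 100 CPM and the same sign in every library, the called genes, or else the 5 smallest p in each direction, leaving out genes that another blood type holds at over 10 times the Mo2 level; left unnamed were T cell receptor, haemoglobin, ribosomal, mitochondrial, immunoglobulin and predicted genes. 1 of the 25 highest genes and 1 B cell marker are not reported here by name. Members and gene lists were chosen with earlier results of these data known. Scrublet in scanpy 1.11.5 marked 13 of 51709 cells (0.0251%), which is too few for a working caller, so doublets were not removed. Intervals and floors cover counting error alone.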

Additional observations from a re-analysis of the deposited data

Results flagged for a closer look

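In 11 of 88 groups of 4 libraries, the highest or lowest library lay further from its nearest neighbour than Dixon's 95% limit, which chance passes in about 1 group in 20. The share of Mo2 among all blood cells in sham was 9.26% in the second library, and the next was 3.91%. In sham Mo2, Jaml reached 322 CPM, C1galt1c1 237 CPM, Capg 508 CPM and Ace 56.6 CPM in the fourth library. Nr4a1 reached 81.7 CPM in the first and Csf1r 471 CPM in the second sham library. At day 2 after stroke, Saa3 (1925 CPM) and Lrg1 (723 CPM) were highest in the first library, and Cd36 (14.1 CPM) and Grk3 (28.5 CPM) stood apart from the other 3.

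The median difference over all genes between Mo2 and the other monocytes, from sham to day 14, was -0.62 with the main scaling of the edgeR test. With that scaling 10 named genes were called as changing differently, and with library size alone 0 genes were called. The differences were -1.32 for Chil3, -1.36 for Plac8, -2.08 for S100a11, -1.18 for Tmsb10, -2.84 for Ppp1ca, -1.44 for Prdx5, -0.83 for Lyz2, -1.11 for S100a4, -1.90 for S100a10 and -2.02 for Prdx1. From sham to day 2 it differed for S100a8 (-10.25), which rests on 1 Mo2 cell of the third sham library and on the other monocytes of the second stroke library. Without that stroke library 0 genes were called, and without that sham library 1 other gene was.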

How the results depend on the processing

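Without a filter on low counts 6 genes were called at day 2 against sham, 13 at day 14 against sham and 11 at day 14 against day 2 after stroke. The last count was 6 with the fit limited to the 2 groups compared, and 0 with library size alone and with entries rounded up. For the response of Mo2 against the other monocytes at day 2, 2 genes were called with library size alone, and 0 with entries rounded up, without cells marked as doublets, in cells with at least 500 counts, and without cells that held markers of other types. For that response at day 14 the count was 62 without a filter and 0 with library size alone. Without cells that held markers of other types, 1 of the 2 fitted libraries of day 14 also fell below 20 cells, so both choices changed together: 0 genes were called within Mo2 at day 14 against day 2 and 4 for the response at day 14, against 0 and 7 with that library alone left out. The 25 highest genes called lower over all monocytes at day 14 against sham were 9 without a filter, 7 in DESeq2, 1 with only the 2 groups compared, 0 with entries rounded up and 1 without the mixed cells.

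Leaving out 1 library at a time gave 0 to 3 calls within Mo2 for day 14 against day 2 and 0 for the other comparisons, with 1 library in the day 14 group where one of its 2 was left out. It gave 0 to 2 and 2 to 38 calls for the responses at day 2 and day 14, and 0 to 6 and 4 to 8 of the 25 genes over all monocytes. The Mo2 share of all blood cells at day 2 against sham was -0.453 points without the third stroke library and up to 2.14 points otherwise, a change of sign. The share differences among monocytes kept their direction, at 15.4 to 26.2, -36.5 to -25.7 and -53.2 to -50.4 points. The edgeR fit of cell counts, on a log2 scale, gave -3.64 and -4.32 among monocytes and -3.65 and -3.84 among all blood cells for day 14 against sham and day 2. In cells with at least 500 counts the day 2 difference among monocytes was 19.6 points (exact permutation p = 0.114). The share within Mo1, Mo2 and Mo4 alone differed by 20.8 points (exact permutation p = 0.229). Settings with cells marked by other types and sums over all or other monocytes were chosen after seeing the data. For single genes, 820 alternatives stayed on the same side of the threshold, 96 lost a call, 19 gained one and none changed sign. Many of the 820 belong to genes without a call in the main fit, which had none to lose. The counts therefore do not measure how stable the calls are. The cause of these changes was not tested.

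Replicate numbers were not shown to pair the libraries: same-numbered sham and day 2 libraries correlated at 0.178, 0.245, -0.338 and 0.264. With the replicate block, 3, 3 and 4 genes were called within Mo2 and 5 of the 25 over all monocytes at day 14 against sham. The paired share differences were 20.7, -36.5 and -53.2 points among monocytes (exact permutation p = 0.125, 0.25 and 0.25, each the smallest the pairs allow). Depth limits the values of day 14, where Mo2 has 57 cells, and a limit of 50 cells a library leaves no library of day 14.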

Other observations

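Fn1, fibronectin, was at 446, 855, 122 and 135 CPM in sham Mo2, then 258, 1338, 778 and 367 CPM at day 2 after stroke, then 294, 453 and 635 CPM at day 14, so the groups overlapped. Id2, an inhibitor of helix-loop-helix factors, was at 179, 107, 246 and 268 CPM in sham, 282, 425, 206 and 261 CPM at day 2 after stroke, and 0, 0 and 67.1 CPM at day 14, with all 3 libraries of day 14 below the other 8. Within Mo2 the difference of Id2 between day 2 and day 14 after stroke was -3.43 ± 1.02 (edgeR adjusted p = 0.344), and over all monocytes it was -1.65 (edgeR adjusted p = 0.0105).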
